A study of Sus scrofa with 6 samples.

Results

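The genes described here carry TGF-beta, BMP and FGF signalling, and were chosen from a list of 45 ligands, receptors, antagonists, SMAD proteins and response genes. Of these, 43 were found among the 19670 gene models of the deposited tables, 35 by the symbol of their gene identifier and 8 by the protein name in the deposited annotation. GDF6 and NOG are not analysed here. A further 7 models carry the protein name of a member already found, and are given as second models. The list holds 14 TGF-beta genes, 20 BMP genes, 10 FGF genes and SMAD4, which serves both SMAD branches. Of the 43 members found, 41 had enough reads to be tested, and BMP7 and GDF5 did not.

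The cells were primary cells freed by enzymes from the auricular (external ear) cartilage of 1 pig aged 4 months, a Duroc x (Landrace x Large White) cross carrying wild-type PPARD. Cells were exposed for 24 h to GW0742, which activates the lipid-sensing nuclear receptor PPARD, or to DMSO alone as the vehicle control, with 3 libraries in each group. Separate cultures are not named in the labels and there was 1 animal, so each p-value reflects the scatter among 6 libraries that may be technical repeats. In bulk RNA, fewer cells of a type and less RNA per cell cannot be told apart.

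TGF-beta ligands are secreted in a latent form held in the matrix by LTBP proteins. Once free they act through type II and type I receptors, which phosphorylate SMAD2 and SMAD3. BMP ligands act through related receptors and SMAD1, SMAD5 and SMAD9, are trapped outside the cell by antagonists such as gremlin and chordin, and switch on the ID genes. FGF ligands act through tyrosine kinase receptors, mainly by way of the ERK kinases, and Sprouty proteins restrain that pathway. In cartilage, TGF-beta and BMP signals promote chondrocyte formation and matrix synthesis, and FGFR3 restrains the growth of long bones.

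The libraries held between 13133894 and 16913742 estimated reads. The agonist check held in every library: ANGPTL4, a PPAR target that inhibits lipoprotein lipase, stood at 187 ± 12.2 CPM with GW0742 and 21.3 ± 5.24 CPM with DMSO (SD, n = 3 each; CPM, reads scaled to library depth; edgeR adjusted p = 0.000193). PDK4, a second PPAR target and an inhibitor of pyruvate oxidation, stood at 4.72 ± 0.773 CPM with GW0742 and 0.284 ± 0.0790 CPM with DMSO (edgeR adjusted p = 0.00151). PPARD itself stood at 55.7 ± 2.51 CPM with GW0742 and 51.5 ± 3.81 CPM with DMSO (edgeR adjusted p = 0.499). Of 11 chondrocyte markers, 9 could be tested, and ACAN, the main cartilage proteoglycan, fell in edgeR (log2 -0.50, adjusted p = 0.0185). Without GW0742 replicate 1, DMSO replicate 1 or DMSO replicate 3 the adjusted p of ACAN was 0.105, 0.101 and 0.0815, at log2 values of -0.51, -0.47 and -0.53. Log2 values were below 0 for 8 of the 9 tested chondrocyte markers (88.9%, against 50.3% of all tested models). Summed over their list, chondrocyte markers stood at 1933 to 2074 CPM with GW0742 and at 2378 to 2518 CPM with DMSO. SOX9 and COL2A1 were present in every library, while MATN1 stood between 0.0751 and 0.131 CPM, under the floor of 3 reads, and CNMD at 0 to 0.131 CPM with GW0742 and at 0 in all DMSO libraries. Endothelial markers had log2 values above 0 for 6 of 6 tested, with a summed level of 98.4 to 133 CPM with GW0742 and 63.0 to 88.6 CPM with DMSO. Their defining markers CDH5 and VWF are not analysed here. Smooth muscle markers were below 0 in 4 of 5 (6168 to 7820 CPM with GW0742, 8124 to 8560 CPM with DMSO), and fibroblast markers in 5 of 5 (59631 to 64867 CPM with GW0742, 65591 to 72226 CPM with DMSO). Immune markers were above 0 in 3 of 3 (29.1 to 31.7 CPM with GW0742, 24.9 to 29.7 CPM with DMSO). The part of these shifts in the results that follow was not tested.

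Levels of different genes are set side by side in deposited RPKM, which scales reads by length. For 14 of the 41 tested members several transcripts are listed, and RPKM need not be the count over the listed length. The ratio of mean CPM per kilobase of listed length to mean RPKM was 1.07 for TGFB1, 1.09 for TGFB3 and 1.07 for FST. These values are close to those of members with 1 transcript. It was 0.26 for BMPR1B, 0.33 for FGFR1, 1.72 for TGFBR1 and 2.09 for SMAD5. Places of members whose ratio departs in this way are uncertain. On the TGF-beta side, TGFB3, 1 of the 3 TGF-beta ligands, was the most abundant member. It stood at 220, 192 and 196 RPKM with GW0742 and at 243, 226 and 230 RPKM with DMSO. LTBP2, a fibrillin-binding matrix protein of the LTBP family, had 135, 161 and 141 RPKM with GW0742 and 113, 123 and 118 RPKM with DMSO. TGFBI, a matrix protein induced by TGF-beta, stood at 117, 112 and 126 RPKM with GW0742 and at 107, 123 and 128 RPKM with DMSO. With DMSO, LTBP2 and TGFBI overlapped, so the order of these neighbours is within their spread. TGFBR2 followed at a mean of 80.8 RPKM over all libraries. INHBA, TGFB2, TGFB1, SMAD2, LTBP1, SMAD4 and TGFBR1 lay together between 19.1 and 36.6 RPKM. SMAD7, SMAD3, TGFBR3 and the activin antagonist FST had means of 7.55, 6.97, 2.89 and 1.29 RPKM. Within the 3 ligands TGFB3 made up 77.3%, 76.6% and 72.7% of the summed RPKM with GW0742 and 79.9%, 78.7% and 79.0% with DMSO. A second TGFB1 model of 354 bases, not in that sum, stood at 48.2, 55.8 and 71.4 RPKM with GW0742 and at 34.9, 55.3 and 45.6 RPKM with DMSO. With it added, a choice made after seeing the data, TGFB3 made up 66.1%, 62.7% and 57.5% with GW0742 and 71.6%, 66.0% and 68.3% with DMSO.

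On the BMP side the response genes were the most abundant. ID3 stood at 260, 340 and 269 RPKM with GW0742 and at 401, 254 and 347 RPKM with DMSO. ID1 stood at 216, 305 and 247 RPKM with GW0742 and at 367, 214 and 330 RPKM with DMSO. These ranges overlapped between the 2 genes and between the groups. GREM1, which encodes the antagonist gremlin 1, followed at 132, 210 and 162 RPKM with GW0742 and at 150, 107 and 144 RPKM with DMSO, on a model of 555 bases. Among the ligands BMP6 had a mean of 53.4 RPKM over all libraries, against 3.44 RPKM for BMP4, 2.27 RPKM for BMP2 and 1.10 RPKM for GDF10. GDF5 stood between 0.115 and 0.252 RPKM, and BMP7 between 0.0532 and 0.0713 RPKM, both at about the floor of 3 reads per library. Of the receptors BMPR2, the type II receptor, overlapped with BMP6 at a mean of 49.9 RPKM. ACVR1, a type I receptor, had 32.8 RPKM, while BMPR1A had 7.81 RPKM and BMPR1B 6.68 RPKM. Counts over the listed length put BMPR1B lower, at 1.73 CPM per kilobase against 8.46 for BMPR1A. The antagonist chordin (CHRD) had a mean of 4.73 RPKM.

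The FGF side was carried by its receptors. FGFR1 stood at 47.1, 76.5 and 70.3 RPKM with GW0742 and at 55.8, 57.6 and 54.1 RPKM with DMSO. FGFR3 had 31.4, 40.9 and 30.3 RPKM with GW0742 and 44.5, 33.8 and 43.3 RPKM with DMSO. FGFR2 had 17.9, 29.3 and 24.1 RPKM with GW0742 and 29.0, 27.1 and 28.0 RPKM with DMSO. FGFR1 was the highest in RPKM, but the models list 12, 3 and 11 transcripts for FGFR1, FGFR3 and FGFR2. Counts over the listed length, taken up after seeing the data, gave another order, with means of 45.8 CPM per kilobase for FGFR3, 20.1 for FGFR1 and 19.96 for FGFR2, so the order of the 3 receptors depends on the unit. Among the ligands, FGF2 and FGF7 overlapped at means of 15.1 and 14.4 RPKM, each on a model of 291 bases. FGF18 and FGF1 were near the low end, at 0.550 and 0.212 RPKM. Of the Sprouty genes SPRY2 had a mean of 6.21 RPKM, SPRY4 2.72 RPKM and SPRY1 0.635 RPKM.

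**Figure D1:**
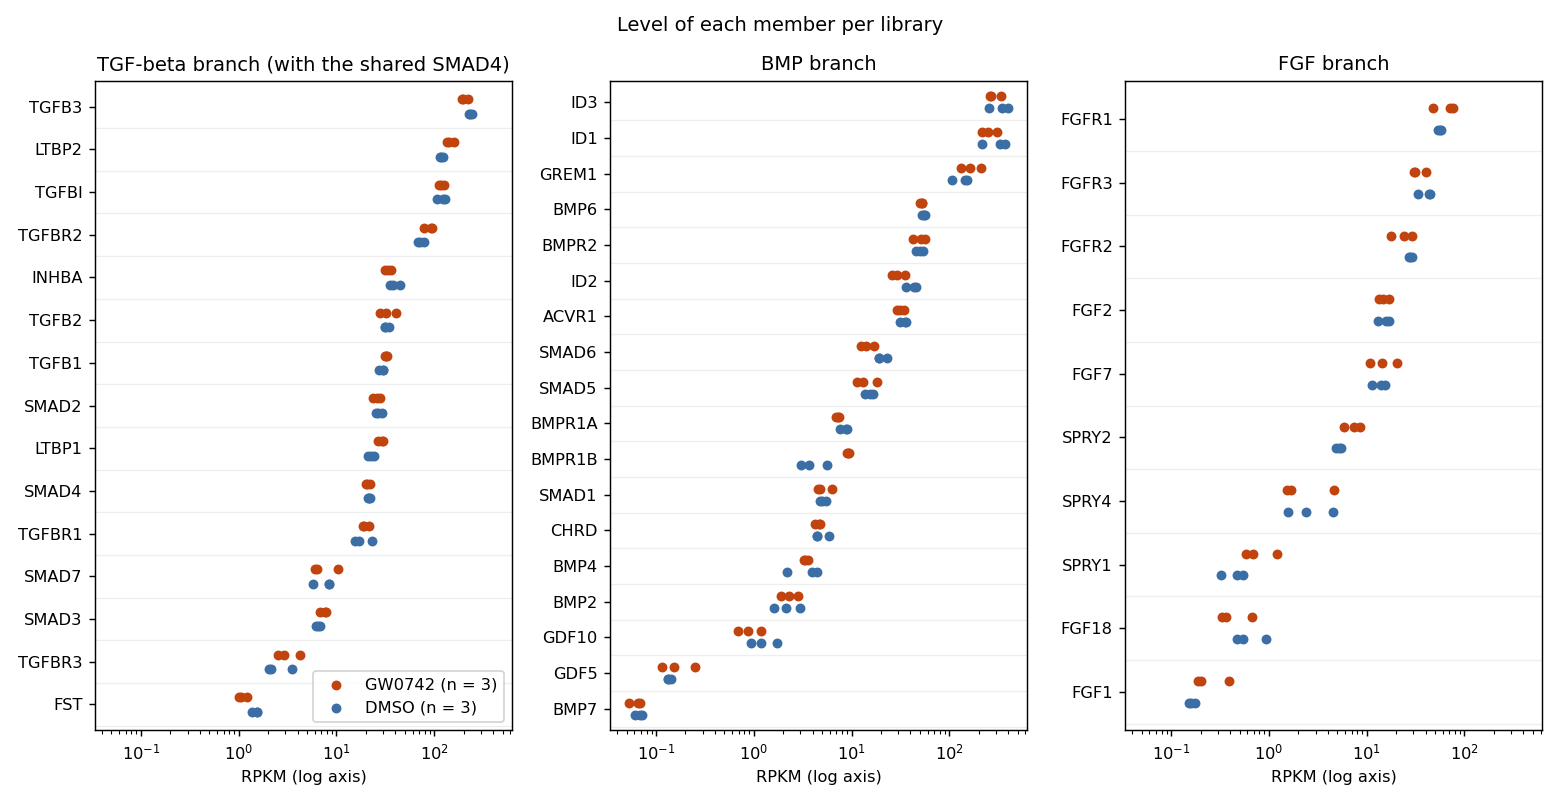
Deposited RPKM (log axis) of each member found, by branch, with 1 point per library, GW0742 above DMSO in each row (n = 3 each). TGFB3, ID3 and FGFR1 lead their branches in this unit (FGFR3 leads its branch in CPM per kilobase of listed length), and BMP7 lies lowest, between 0.0532 and 0.0713 RPKM.

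Across all branches no member passed the test between GW0742 and DMSO. In edgeR 0 of 41 tested members had an adjusted p under 0.05, against 0.262% of all 14146 tested models (0.184% higher and 0.0778% lower). At an unadjusted p under 0.05, edgeR gave 5 members higher (12.2%, against 7.93% of all tested models) and 9 lower (22.0%, against 8.91%), where 16.8% of all tested models passed in either direction. DESeq2, fitted as an alternative, called 2 members higher (1.46% of all models) and 2 lower (1.65%). The 3 GW0742 libraries lay wholly above the 3 DMSO libraries in CPM for 5 members and wholly below for 9, against 11.4% and 12.1% of all tested models (23.4% in either direction). These counts depend on the unit. In deposited RPKM, INHBA, TGFBR1, BMP6 and FGFR2 of those 9 overlapped. TGFB1, SMAD3 and BMPR1B, which overlapped in CPM, lay wholly above in RPKM. The share of all models in RPKM is not given here. Some members given per library below were picked by an unadjusted edgeR p under 0.05 and groups apart. For these, the lack of overlap is not a further result. Of the 41 log2 fold changes 26 were below 0 (63.4%, against 50.3% of all tested models), with a median of -0.09 beside -0.0015 over all tested models. The largest change in either direction at a mean of at least 1 CPM was that of SPRY1, at a log2 value of 0.85. Without GW0742 replicate 2 it was 0.48. In the same fit, at a mean of at least 1 CPM, the values of SPRY4 (-0.82), GDF10 (-0.72), SMAD6 (-0.63), ID2 (-0.62) and FGFR2 (-0.51) were larger in size.

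**Figure D2:**
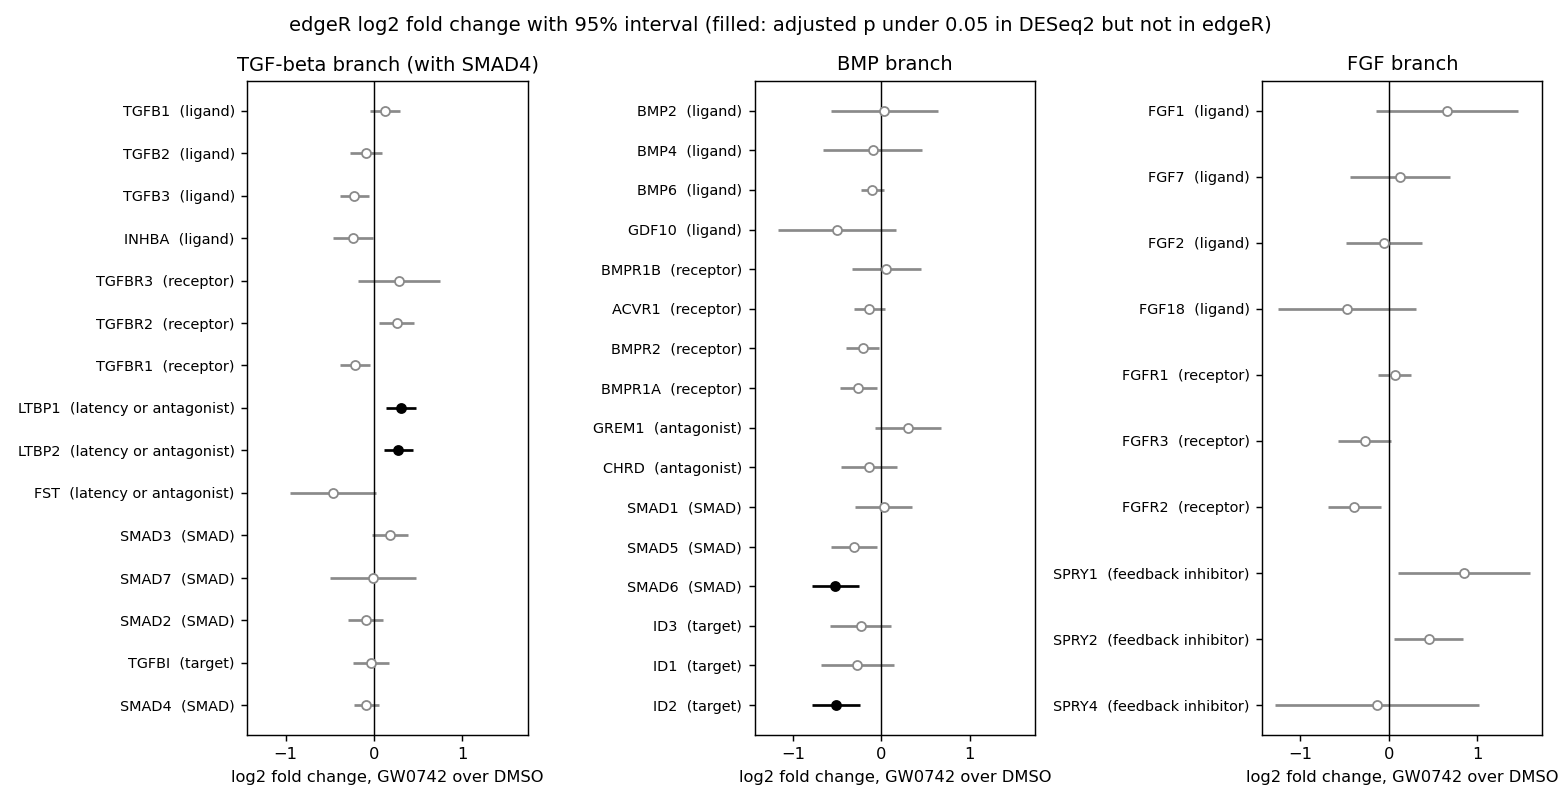
Log2 fold change of GW0742 over DMSO (edgeR, horizontal axis) with its 95% interval for each tested member, ordered by role within each branch. Filled points mark the 4 members that DESeq2 called and edgeR did not: LTBP1 and LTBP2 above 0, SMAD6 and ID2 below 0.

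In the TGF-beta branch 3 of 14 tested members were higher at an unadjusted edgeR p under 0.05 (21.4%, against 7.93% of all tested models). A further 3 were lower (21.4%, against 8.91%), and the median log2 value was -0.02. Both LTBP genes had higher values with GW0742, and 2 of the 4 ligands, TGFB3 and INHBA, had lower ones. None of the 14 passed in edgeR after adjustment, and DESeq2 called LTBP1 and LTBP2.

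LTBP1, which ties latent TGF-beta to the matrix, stood at 142, 154 and 153 CPM with GW0742 and at 111, 131 and 121 CPM with DMSO. Every GW0742 library lay above every DMSO library. The log2 fold change was 0.31 ± 0.07 (SE), with an edgeR adjusted p of 0.114 and a DESeq2 adjusted p of 0.0182. LTBP2 stood at 805, 925 and 836 CPM with GW0742 and at 669, 745 and 706 CPM with DMSO. Again the groups did not overlap, and the highest value was that of GW0742 replicate 2. The log2 fold change was 0.28 ± 0.07 (SE), with an edgeR adjusted p of 0.126 and a DESeq2 adjusted p of 0.0112. LTBP2, unlike LTBP1, is not known to bind latent TGF-beta. Leaving out single libraries gave LTBP1 edgeR adjusted p-values from 0.102 to 0.355 and LTBP2 from 0.131 to 0.372. A second LTBP1 model was low, between 0.720 and 3.38 CPM, and overlapped between the groups.

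Among the ligands, TGFB3 stood at 827, 699 and 733 CPM with GW0742 and at 904, 865 and 869 CPM with DMSO. All GW0742 libraries lay below the DMSO libraries, with replicate 1 nearest to them (log2 -0.22 ± 0.07 SE, edgeR adjusted p = 0.181). INHBA, the subunit that forms activin A, stood at 64.6, 71.1 and 69.4 CPM with GW0742 and at 71.8, 93.3 and 77.6 CPM with DMSO. The groups parted by a narrow margin, between GW0742 replicate 2 and DMSO replicate 1 (log2 -0.24 ± 0.10 SE, edgeR adjusted p = 0.272). In deposited RPKM these 2 libraries stood at 36.0 and 35.5, so the groups overlapped. Without DMSO replicate 2, the highest library, the log2 value of INHBA was -0.13. TGFB1 and TGFB2 overlapped between the groups, with log2 values of 0.12 (95% interval -0.05 to 0.29) and -0.09 (95% interval -0.27 to 0.09).

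The receptors did not share a direction. TGFBR1, the type I receptor, stood at 56.8, 50.4 and 56.6 CPM with GW0742 and at 64.6, 65.9 and 59.7 CPM with DMSO. All GW0742 libraries were below the DMSO libraries (log2 -0.22 ± 0.08 SE, edgeR adjusted p = 0.208), but on the deposited RPKM values limma gave a log2 value of 0.11. TGFBR2, the type II receptor, stood at 93.5, 93.0 and 80.0 CPM with GW0742 and at 71.8, 70.8 and 80.5 CPM with DMSO. GW0742 replicate 3 lay below DMSO replicate 3, so the groups overlapped (log2 0.25 ± 0.08 SE, edgeR adjusted p = 0.190). A second TGFBR2 model of 297 bases had a similar log2 value of 0.26. With both models summed the GW0742 libraries lay above the DMSO libraries, at 117, 125 and 111 CPM against 93.2, 95.2 and 106 CPM (log2 0.26, edgeR adjusted p = 0.127). TGFBR3, a co-receptor without kinase activity, overlapped between the groups (log2 0.28, 95% interval -0.18 to 0.74).

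FST, which encodes follistatin, stood at 1.76, 1.81 and 2.16 CPM with GW0742 and at 2.37, 2.78 and 2.76 CPM with DMSO. The groups did not overlap, at the low level of this gene, and the interval of the log2 value of -0.46 reached from -0.95 to 0.03 (edgeR adjusted p = 0.325). The signal carriers SMAD2 and SMAD3 and the inhibitory SMAD7 overlapped between the groups, with log2 values of -0.09, 0.18 and -0.01. SMAD7 varied widely within the groups, at 20.1, 33.4 and 21.0 CPM with GW0742 and at 28.0, 19.5 and 27.9 CPM with DMSO. TGFBI stood at 241, 221 and 258 CPM with GW0742 and at 217, 257 and 264 CPM with DMSO. Its groups overlapped, with a log2 value of -0.04 (95% interval -0.24 to 0.17). SMAD4, the common partner of both SMAD branches, stood at 78.1, 79.9 and 75.3 CPM with GW0742 and at 79.4, 85.5 and 82.8 CPM with DMSO. GW0742 replicate 2 reached just above DMSO replicate 1 (log2 -0.09, 95% interval -0.23 to 0.05, edgeR adjusted p = 0.518).

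In the BMP branch 12 of 16 tested members had log2 values below 0 with GW0742 (75%, against 50.3% of all tested models), with a median of -0.18 beside -0.0015. At an unadjusted p under 0.05, 5 were lower (31.2%, against 8.91% of all tested models) and 0 higher (against 7.93%). In the list of other BMP pathway genes, 4 of 12 tested were below 0 (33.3%), with a median of 0.09. Of the 16 tested members, the lowest were SMAD6, ID2 and GDF10 (log2 -0.52, -0.51 and -0.50). BMP signalling is known to induce SMAD6 and ID2. None of the 16 passed in edgeR after adjustment, and DESeq2 called SMAD6 and ID2.

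SMAD6, an inhibitory SMAD that acts mainly on the BMP branch, stood at 30.9, 35.7 and 27.0 CPM with GW0742 and at 49.8, 42.6 and 41.8 CPM with DMSO. Every GW0742 library lay below every DMSO library. The log2 fold change was -0.52 ± 0.12 (SE), with an edgeR adjusted p of 0.101 and a DESeq2 adjusted p of 0.00737. ID2, a helix-loop-helix protein that blocks other transcription factors, stood at 39.4, 51.7 and 44.3 CPM with GW0742 and at 70.1, 55.8 and 67.2 CPM with DMSO. No GW0742 library reached the DMSO range, and the nearest pair were the replicates numbered 2. The log2 fold change was -0.51 ± 0.12 (SE), with an edgeR adjusted p of 0.106 and a DESeq2 adjusted p of 0.00514. Leaving out single libraries gave SMAD6 log2 values from -0.63 to -0.42 with edgeR adjusted p-values from 0.0732 to 0.346. For ID2 the log2 values ran from -0.62 to -0.42 and the edgeR adjusted p-values from 0.0865 to 0.346.

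ID1 and ID3, close relatives of ID2, turned on 1 DMSO library. ID1 stood at 232, 316 and 265 CPM with GW0742 and at 391, 235 and 357 CPM with DMSO. ID3 stood at 186, 235 and 192 CPM with GW0742 and at 284, 185 and 249 CPM with DMSO. In both genes DMSO replicates 1 and 3 lay above all other libraries, while DMSO replicate 2 lay within or below the range of the GW0742 libraries. The log2 values were -0.27 for ID1 (edgeR adjusted p = 0.485) and -0.23 for ID3 (edgeR adjusted p = 0.478). Without DMSO replicate 2 they were -0.46 and -0.39 (edgeR adjusted p = 0.153 and 0.176), and without DMSO replicate 1 they were -0.13 and -0.09. ID1 and ID3 kept nearly the same proportion in each library: ID1 made up 43.0% to 45.4% of the summed RPKM of the 3 ID genes with GW0742 and 42.5% to 45.8% with DMSO. The share of ID2 was 5.12% to 5.30% with GW0742 and 5.66% to 7.07% with DMSO, so it was lower with GW0742 in every library.

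**Figure D3:**
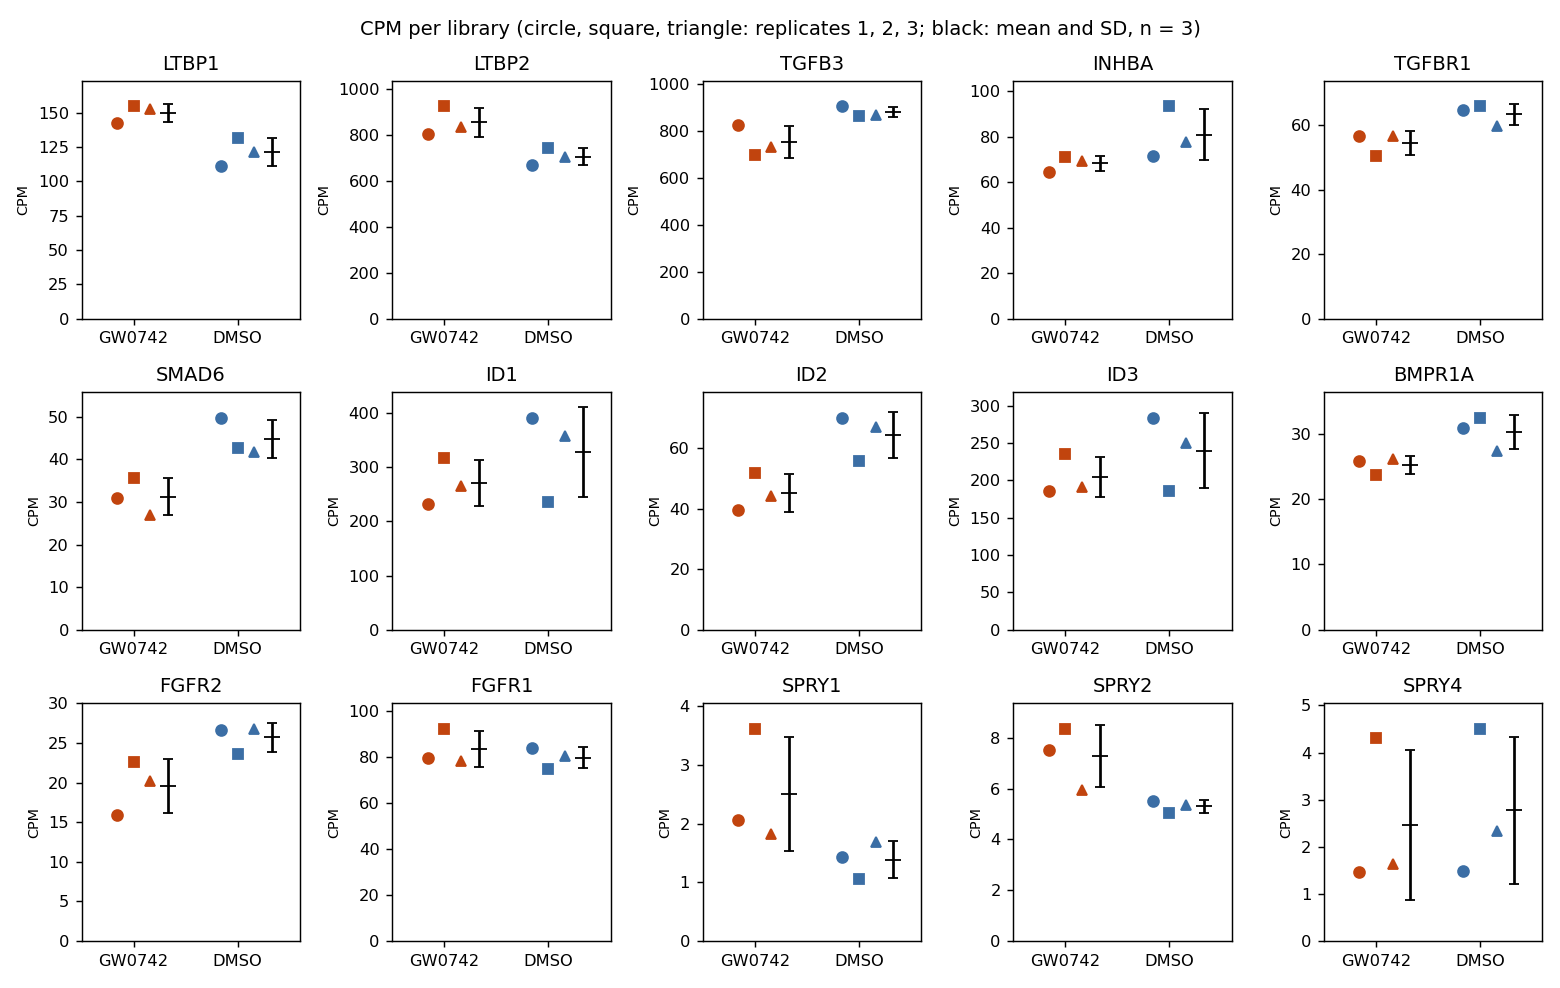
CPM (vertical axes from 0) of 15 members in each library, GW0742 on the left and DMSO on the right, with the mean and SD in black (n = 3 each). LTBP1, LTBP2, SMAD6 and ID2, which DESeq2 called, separate the groups. So do TGFB3, INHBA, TGFBR1, BMPR1A, FGFR2, SPRY1 and SPRY2, and 23.4% of all tested models. In ID1 and ID3 DMSO replicate 2 falls among the GW0742 libraries or below them.

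The BMP receptors had log2 values below 0 in 3 of 4 in edgeR on counts. BMPR1A, a type I receptor, stood at 25.9, 23.7 and 26.1 CPM with GW0742 and at 30.9, 32.4 and 27.3 CPM with DMSO. All GW0742 values were below the DMSO values, with DMSO replicate 3 closest to the GW0742 libraries (log2 -0.26 ± 0.09 SE, edgeR adjusted p = 0.220). BMPR2 stood at 132, 138 and 155 CPM with GW0742 and at 152, 178 and 163 CPM with DMSO. Its groups overlapped between GW0742 replicate 3 and DMSO replicate 1 (log2 -0.21 ± 0.08 SE, edgeR adjusted p = 0.246). In deposited RPKM, with 4 transcripts listed, the log2 ratio of the BMPR2 means was 0.0011. ACVR1 overlapped as well, with a log2 value of -0.14 (95% interval -0.31 to 0.04).

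SMAD5, a signal carrier, stood at 34.5, 42.0 and 38.7 CPM with GW0742 and at 53.2, 40.9 and 48.5 CPM with DMSO. GW0742 replicate 2 lay above DMSO replicate 2, so the groups overlapped (log2 -0.31 ± 0.11 SE, edgeR adjusted p = 0.224). A second SMAD5 model took between 0.297 and 6.68 CPM. With both models summed the GW0742 libraries lay below the DMSO libraries, at 38.9, 42.7 and 42.9 CPM against 53.4, 47.5 and 52.1 CPM (log2 -0.30, edgeR adjusted p = 0.103). SMAD1 overlapped between the groups (log2 0.03, 95% interval -0.30 to 0.35).

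Ligands and antagonists of the branch gave no adjusted p under 0.39 in edgeR. BMP6 stood at 332, 319 and 313 CPM with GW0742 and at 341, 337 and 357 CPM with DMSO. All GW0742 libraries were below the DMSO libraries, by little (log2 -0.10, 95% interval -0.23 to 0.03, edgeR adjusted p = 0.400). In deposited RPKM the BMP6 groups overlapped, at 53.1 in GW0742 replicate 1 and 52.8 in DMSO replicate 2. BMP2, BMP4 and GDF10 overlapped between the groups, with log2 values of 0.04, -0.10 and -0.50 and intervals that all spanned 0. GREM1 stood at 77.6, 119 and 94.8 CPM with GW0742 and at 87.1, 63.8 and 85.2 CPM with DMSO. GW0742 replicate 2 was the highest and DMSO replicate 2 the lowest library, and the groups overlapped (log2 0.30 ± 0.16 SE, edgeR adjusted p = 0.393). Without the first of these libraries the GREM1 log2 value was 0.13, and without the other 0.18. CHRD overlapped too, with a log2 value of -0.14.

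In the FGF branch the feedback inhibitors SPRY1 and SPRY2 had higher values with GW0742 and the receptor FGFR2 a lower one. At an unadjusted edgeR p under 0.05 these 2 of 10 tested members were higher (20%, against 7.93% of all tested models). FGFR2 was the 1 lower (10%, against 8.91%), and the median log2 value was 0.0054. None passed after adjustment in edgeR, and DESeq2 called 0.

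SPRY1, a Sprouty protein that restrains ERK signalling, stood at 2.07, 3.62 and 1.83 CPM with GW0742 and at 1.42, 1.05 and 1.68 CPM with DMSO. Both groups stood apart, and GW0742 replicate 2 stood well above the other GW0742 libraries. The log2 fold change of 0.85 ± 0.33 (SE) had an edgeR adjusted p of 0.247, and without GW0742 replicate 2 it was 0.48. SPRY2 stood at 7.50, 8.35 and 5.95 CPM with GW0742 and at 5.52, 5.03 and 5.34 CPM with DMSO. Here too the groups did not overlap, GW0742 replicate 3 lying nearest to DMSO (log2 0.45 ± 0.17 SE, edgeR adjusted p = 0.236). SPRY4 stood at 1.45, 4.30 and 1.63 CPM with GW0742 and at 1.48, 4.51 and 2.34 CPM with DMSO. In both groups replicate 2 was the highest, and the log2 value was -0.13 (95% interval -1.29 to 1.02). Over left-out libraries the SPRY4 value ran from -0.82 to 0.38.

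FGFR2 stood at 15.9, 22.6 and 20.2 CPM with GW0742 and at 26.7, 23.7 and 26.8 CPM with DMSO. The GW0742 libraries lay below the DMSO libraries, with the replicates numbered 2 nearest to each other (log2 -0.39 ± 0.13 SE, edgeR adjusted p = 0.196). A second FGFR2 model had a log2 value of -0.27 with overlapping groups, and the 2 models summed gave -0.35 with groups apart (edgeR adjusted p = 0.166). FGFR3 stood at 32.5, 40.9 and 31.2 CPM with GW0742 and at 45.6, 35.7 and 45.1 CPM with DMSO. The groups overlapped because GW0742 replicate 2 lay above DMSO replicate 2 (log2 -0.27 ± 0.13 SE, edgeR adjusted p = 0.338). FGFR1 stood at 79.4, 92.1 and 78.2 CPM with GW0742 and at 83.8, 74.6 and 80.1 CPM with DMSO, with overlapping groups (log2 0.07, 95% interval -0.12 to 0.25).

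The FGF ligands were low in reads. FGF1 stood at 1.61, 0.811 and 0.784 CPM with GW0742 and at 0.712, 0.676 and 0.600 CPM with DMSO. The groups did not overlap, but GW0742 replicate 1 alone stood far above the rest (log2 0.66, 95% interval -0.14 to 1.47, edgeR adjusted p = 0.388), and without it the log2 value of FGF1 was 0.27. FGF2, FGF7 and FGF18 overlapped between the groups, with log2 values of -0.06, 0.13 and -0.47 and intervals that spanned 0.

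Other genes of the same pathways were taken from lists of 29 TGF-beta, 22 BMP and 35 FGF genes, of which 21, 12 and 27 could be tested. None of the 60 passed in edgeR after adjustment. At an unadjusted p under 0.05, edgeR gave 3 higher and 1 lower in the TGF-beta list, 2 higher and 2 lower in the BMP list, and 3 higher and 3 lower in the FGF list. Over the 3 lists that is 8 higher (13.3%, against 7.93% of all tested models) and 6 lower (10%, against 8.91%). DESeq2 called 4 higher and 2 lower of the 60, where it called 1.46% and 1.65% of all models. The median log2 values were -0.02, 0.09 and 0.08. Groups were apart in CPM for 14 higher (23.3%, against 11.4% of all tested models) and 8 lower (13.3%, against 12.1%). Except for DUSP6, the list genes described directly below were picked by an unadjusted edgeR p under 0.05 and groups apart. Their lack of overlap is therefore not a further result.

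In the TGF-beta list LRRC32, which holds latent TGF-beta on the cell surface, stood at 20.1, 22.6 and 21.0 CPM with GW0742 and at 15.4, 14.6 and 16.4 CPM with DMSO. The groups lay well apart (log2 0.45 ± 0.10 SE, edgeR adjusted p = 0.0906, DESeq2 adjusted p = 0.0481). LTBP3, a further latent TGF-beta binding protein, stood at 192 ± 6.73 CPM with GW0742 and 169 ± 7.56 CPM with DMSO (SD, n = 3 each). Its groups did not overlap (log2 0.18, edgeR adjusted p = 0.187). CCN2, a matrix-associated growth factor that TGF-beta induces, stood at 632 ± 22.6 CPM with GW0742 and 567 ± 38.4 CPM with DMSO (log2 0.16, edgeR adjusted p = 0.279). SKIL, a repressor of SMAD-dependent transcription, stood at 61.7 ± 2.89 CPM with GW0742 and 73.8 ± 3.32 CPM with DMSO (log2 -0.26, edgeR adjusted p = 0.127).

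In the BMP list SMAD9, the third BMP signal carrier, stood at 48.5, 46.9 and 49.0 CPM with GW0742 and at 63.1, 58.0 and 59.7 CPM with DMSO. The groups lay well apart and the libraries of each were close together (log2 -0.33 ± 0.07 SE, edgeR adjusted p = 0.0782, DESeq2 adjusted p = 0.0224). ID4, the remaining ID gene, stood at 33.2, 26.0 and 33.4 CPM with GW0742 and at 39.2, 43.5 and 43.8 CPM with DMSO. Its groups did not overlap (log2 -0.45 ± 0.11 SE, edgeR adjusted p = 0.112, DESeq2 adjusted p = 0.0231). The BMP-binding proteins CRIM1 and NBL1 had higher values with GW0742. CRIM1, a membrane protein, stood at 297, 291 and 275 CPM with GW0742 and at 231, 240 and 240 CPM with DMSO (log2 0.28 ± 0.06 SE, edgeR adjusted p = 0.0794, DESeq2 adjusted p = 0.00165). NBL1, a secreted antagonist, stood at 66.5, 49.6 and 58.4 CPM with GW0742 and at 35.3, 46.6 and 43.5 CPM with DMSO (log2 0.48 ± 0.13 SE, edgeR adjusted p = 0.139, DESeq2 adjusted p = 0.0245).

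In the FGF list EGR1, an immediate early transcription factor downstream of ERK, stood at 15.1, 25.2 and 10.8 CPM with GW0742 and at 6.05, 7.81 and 6.72 CPM with DMSO. The groups did not overlap, and the GW0742 libraries differed among themselves more than the DMSO libraries. The log2 value of 1.32 ± 0.29 (SE) had an edgeR adjusted p of 0.0961 and a DESeq2 adjusted p of 0.000342. The endothelial marker PECAM1 stood at 28.3, 35.0 and 15.6 CPM with GW0742 and at 11.9, 12.2 and 11.1 CPM with DMSO. Like EGR1, it was highest in GW0742 replicate 2 and lowest in GW0742 replicate 3, and its part in the value of EGR1 was not tested. ETV5, a transcription factor of FGF signalling, stood at 6.27 ± 0.556 CPM with GW0742 and 4.73 ± 0.418 CPM with DMSO (SD, n = 3 each; log2 0.41, edgeR adjusted p = 0.257). The adaptor GAB1 and the receptor partners FLRT2 and FLRT3 had log2 values of -0.21, -0.31 and -0.42, with groups that did not overlap. DUSP6, a phosphatase that turns off ERK, had a log2 value of 0.62 with overlapping groups.

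**Figure D4:**
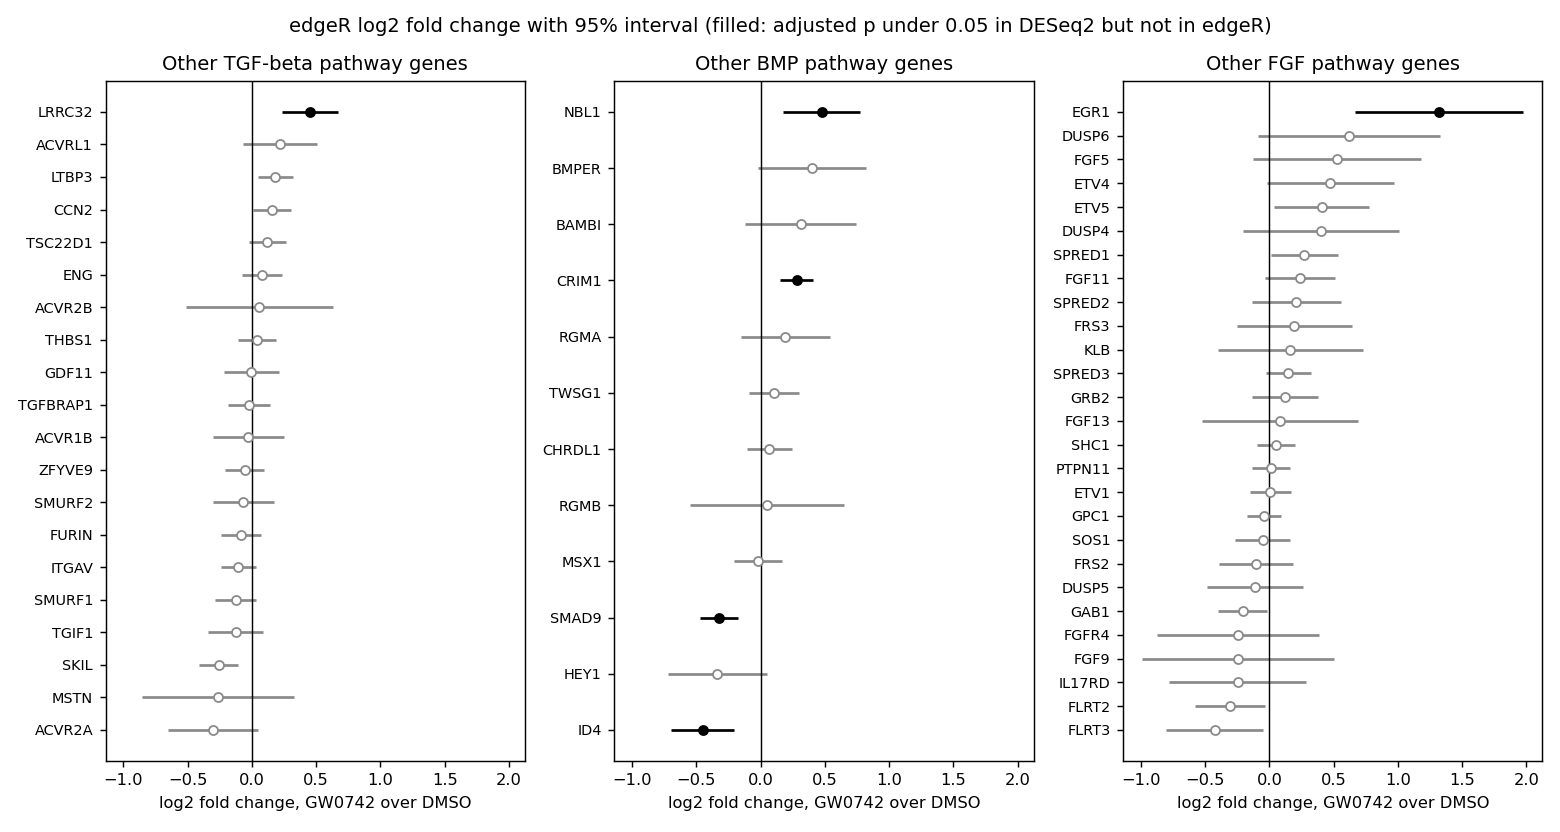
Log2 fold change of GW0742 over DMSO (edgeR, horizontal axis) with its 95% interval for the tested genes of the other pathway lists that are reported here, sorted within each list. Filled points mark the 6 genes that DESeq2 called and edgeR did not: LRRC32, NBL1, CRIM1 and EGR1 above 0, SMAD9 and ID4 below 0.

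BMPR1B, a BMP type I receptor for which 6 transcripts are listed, differed between the deposited units. In RPKM it stood at 9.46, 9.01 and 9.24 with GW0742 and at 3.70, 5.64 and 3.02 with DMSO, so the groups lay far apart. In CPM, from the estimated counts of the same libraries, it stood at 8.88, 8.04 and 9.67 with GW0742 and at 8.19, 10.4 and 7.08 with DMSO, so the groups overlapped. The log2 value was 0.05 in edgeR on counts (95% interval -0.33 to 0.44, adjusted p = 0.906) and 1.03 in limma on log2(RPKM + 1) (adjusted p = 0.121). The log2 ratio of mean RPKM exceeded that of mean CPM by 1.11. Among 1667 tested models with several transcripts and a mean of at least 1 CPM with DMSO, the median size of this gap was 0.0275 and BMPR1B had the largest. Among 11640 models with 1 transcript no gap was as large. TGFBR1 also lists 6 transcripts, with a gap of 0.31. For SMAD5, BMPR2, FGFR2, TGFB2 and FGFR1, which list 6, 4, 11, 3 and 12 transcripts, the gap was between 0.15 and 0.21. Among members with several transcripts, the log2 ratio of the means was above 0 in RPKM and below 0 in CPM for TGFBR1 (0.096 and -0.22), TGFB2 (0.062 and -0.09) and BMPR2 (0.0011 and -0.21). A second BMPR1B model with 1 transcript stood at 2.14, 3.12 and 1.76 CPM with GW0742 and at 1.48, 0.676 and 1.74 CPM with DMSO. Its groups nearly touched, at GW0742 replicate 3 and DMSO replicate 3, and its log2 value was 0.83 (edgeR adjusted p = 0.300).

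**Figure D5:**
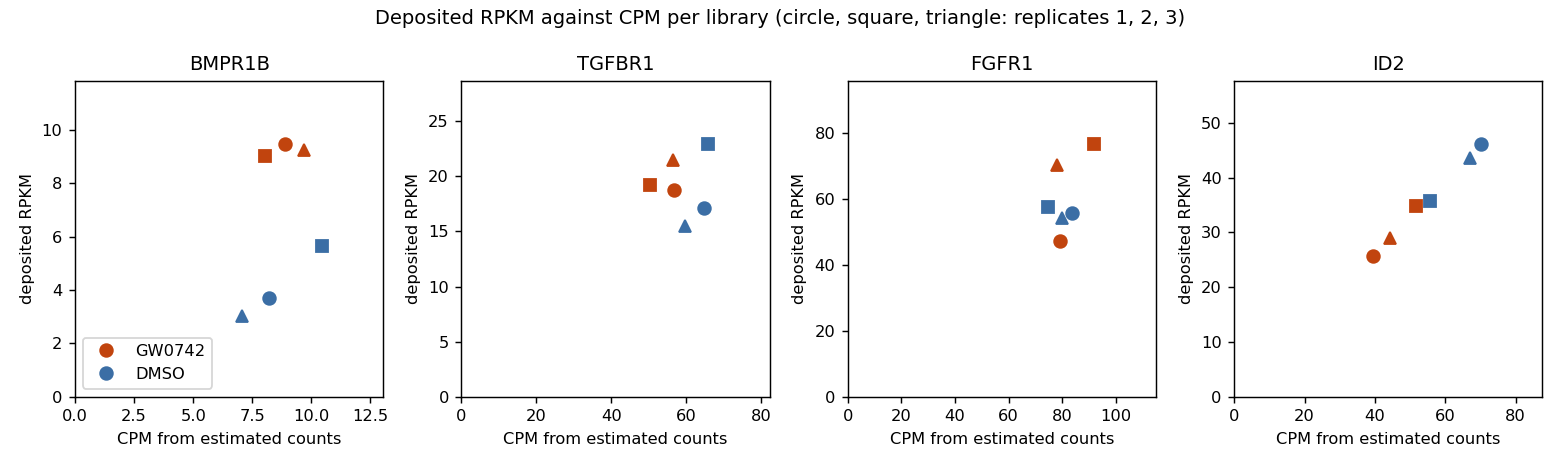
Deposited RPKM (vertical axis) against CPM from the estimated counts (horizontal axis) for BMPR1B, TGFBR1, FGFR1 and ID2, with 1 point per library. ID2, with 1 listed transcript, falls on a line, while BMPR1B separates GW0742 from DMSO in RPKM but not in CPM.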

How the data were processed

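Per the labels' protocols, mRNA was enriched on oligo(dT) beads, fragmented, copied with random hexamers and sequenced by Ion Proton. Strand marking is not mentioned there, so a gene's reads cannot be told apart from those of an overlapping gene on the other strand. The genome build was Sscrofa 10.2, per the submitters' processing notes. How reads were aligned and counted, and with which annotation, is not given in the sources used here.

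Per the file headers, the authors deposited, for each library and gene model, an RPKM and an estimated count, which is mostly fractional. The deposited RPKM values of the series table and of the library tables differed in 0 values. Estimated counts may split reads between near-identical models, so members with a second model (TGFB1, TGFBR1, TGFBR2, LTBP1, BMPR1B, SMAD5 and FGFR2) are uncertain. For models with several transcripts RPKM need not be the count divided by the 1 listed length.

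Members were found through a gene name table, or else by protein name. Members, gene lists and the naming rule were chosen with earlier results of these data known. The rule names members with an unadjusted edgeR p under 0.05 and groups apart, the 3 most abundant members per branch, and the 2 largest changes per branch at a mean of at least 1 CPM. From the other pathway lists it names genes with an unadjusted edgeR p under 0.05 and groups apart. Other members and genes with values were chosen after their values were seen. A gene of the other TGF-beta list counts in its totals but is not reported here.

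Counts were rounded to whole numbers, filtered with filterByExpr (minimum count 10) and TMM-normalized. GW0742 was tested over DMSO with edgeR 4.0.16 (quasi-likelihood F-test, no block) in R 4.3.3. Tests were two-sided, with Benjamini-Hochberg adjustment over 14146 models and a threshold of 0.05. CPM uses TMM-scaled library sizes. The SE was taken from the log2 fold change and the square root of F, and intervals cover 95%. A floor of 3 reads corresponds to 0.177 to 0.228 CPM and covers counting error only. No pair of libraries agreed within sampling noise (chi-square per degree of freedom from 4.34 to 16.0 within groups).

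Alternatives were median-of-ratios factors, DESeq2 1.42.0, no filter beyond 1 read, leaving out each library, a replicate block, limma 3.58.1 on log2(RPKM + 1) and log2(RPKM + 0.1), and summed models of 1 protein name. In a simulation of the GW0742 over DMSO comparison (14020 genes), edgeR recovered 61.2% of 67 genes at 1.5-fold, 86.6% of 67 at 2-fold and 100% of 66 at 4-fold, and 6.25% of 176 calls were false. Changed genes were drawn only from those above a set mean read count. The spread between libraries followed the trend with expression level and not each gene's own value. The data gave 37 calls, against 176 there, where the changed genes were planted, so the 2 counts are not comparable. Because of the simulated spread, these rates do not carry over to the genes of these data. That includes members with few reads and changes under 1.5-fold.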

Additional observations from a re-analysis of the deposited data

How the results depend on the processing

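Over all models edgeR gave 26 higher and 11 lower. DESeq2 gave 207 and 234, no filter beyond 1 read 13 and 3, limma on log2(RPKM + 1) 13 and 2, limma on log2(RPKM + 0.1) 7 and 4, and summed models 51 and 22. Leaving out 1 library, which removes samples from the fit, gave 6 to 54 higher and 0 to 47 lower. The extremes were without DMSO replicate 1 and without GW0742 replicate 3. Each left-out library except DMSO replicate 2 moved at least 1 of the counts by over 1.5 times. DESeq2 called 2 TGF-beta members, 2 BMP members and 0 FGF members, and 1, 4 and 1 of the other TGF-beta, BMP and FGF pathway genes, where edgeR called 0 in each. Leaving out 1 library gave 0 to 1 other FGF pathway genes, EGR1 without GW0742 replicate 3 (log2 1.56, edgeR adjusted p = 0.0476). The cause of these differences was not tested. In the remaining alternatives the counts of members and other pathway genes called stayed at 0.

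Replicate numbers did not pair the libraries: same-numbered deviations correlated at 0.00543, -0.0320 and -0.103. With the number as a replicate block, edgeR called 10 models higher and 0 lower, and 0 members.

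Of 247 alternative values for 19 named members, 238 stayed on their side, 4 passed the threshold in DESeq2 (LTBP1, LTBP2, SMAD6 and ID2) and 5 turned direction. TGFBR1 turned to 0.11 in limma with either pseudocount. Over left-out libraries TGFBI ran from -0.12 to 0.021, above 0 without GW0742 replicate 2 or DMSO replicate 3, and FGFR1 from -0.014 to 0.11, below 0 without GW0742 replicate 2. Depth limits the low members: SPRY1, SPRY4, FST, FGF1, FGF18 and GDF10 rest on few reads, and BMP7 and GDF5 could not be tested.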

Other observations

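Within the GW0742 group, replicate 2 was the highest of the 3 libraries in 24 of 41 tested members (58.5%), against 35.7% of all tested models, and replicate 1 was the highest in 8 (19.5%, against 32.2%). Within the DMSO group, replicate 2 was the highest in 18 members (43.9%, against 41.0% of all tested models) and the lowest in 18 (43.9%, against 40.3%).

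Of the genes listed for the BMP pathway but too low to test, BMP5, a BMP ligand, stood at 0.459, 0.686 and 0.392 CPM with GW0742 and at 0.237, 0.0751 and 0.180 CPM with DMSO. The groups did not overlap, but BMP5 had 4, 1 and 3 reads with DMSO, at about the floor of 3 reads. The BMP antagonist BMPER stood at 4.14, 4.24 and 4.18 CPM with GW0742 and at 2.67, 3.38 and 3.48 CPM with DMSO (log2 0.40, edgeR adjusted p = 0.325), and the pseudoreceptor BAMBI at 3.29, 2.93 and 2.94 CPM with GW0742 and at 2.37, 2.48 and 2.52 CPM with DMSO (log2 0.31, edgeR adjusted p = 0.442). Both were picked after their values were seen. Their groups did not overlap, as was so in the higher direction for 11.4% of all tested models.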
